A study of Homo sapiens with 6 samples.

Results

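The genes described here encode the enzymes that build purine nucleotides from small precursors: PPAT, GART, PFAS, PAICS, ADSL and ATIC, which lead to inosine monophosphate (IMP), ADSS, which turns IMP towards AMP, and IMPDH1, IMPDH2 and GMPS, which turn it into GMP. They were chosen by symbol in the authors' deposited table of all genes and joined by identifier to the table of raw counts. The 10 symbols matched 11 of 63677 identifiers. The extra one, another entry for GART (ENSG00000262473), had 0 counts in every sample, and the other 10 were among the 15492 genes with enough counts to test.

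RNA came from RPMI-8402 cells, established from a human acute lymphoblastic leukaemia of the T lineage and engineered to express Cas9 stably, the nuclease that guide RNAs direct to a matching DNA site. All 6 samples carry the genotype label MYC_KO and an inducible system for guide RNAs against MYC. In 3 samples doxycycline was given for 72 hours to switch the guides on, and 3 samples received DMSO, the solvent control. No sample received doxycycline without guides, so an effect of the drug itself cannot be told apart from an effect of the guides. Whether replicates were grown apart is not stated in the labels. The p-values therefore describe the spread of these samples alone, which may be technical.

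Cells make purines either by salvage of free bases or by this pathway, which assembles the purine ring step by step on a phosphorylated ribose, phosphoribosyl pyrophosphate (PRPP). Glycine, glutamine, aspartate, carbon dioxide and formyl groups carried by folate supply the atoms of the ring. IMP, the first complete purine nucleotide, is the branch point to AMP and GMP. Dividing lymphoid cells draw heavily on the pathway, and drugs that block it or its folate supply, such as mycophenolate, mercaptopurine and methotrexate, act on lymphocytes or leukaemic lymphoblasts. MYC, a transcription factor that binds DNA with its partner MAX, is a known regulator of many of these genes.

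Total counts were 23121255 to 26214598 per sample, and each of the 10 genes had between 1028 and 17686 counts in every sample. Levels are given as CPM, a gene's share of its library after TMM scaling. In bulk RNA of this kind, fewer cells of a type and less RNA per cell cannot be told apart. The targeted gene, MYC, ranged from 407 to 422 CPM with DMSO and from 431 to 459 CPM with doxycycline, so it was not lower. Its log2 fold change of 0.09 did not pass the test (edgeR adjusted p = 0.160), but passed as higher under upper-quartile scaling (0.0357) and library size alone (0.0281). Reads from an edited gene can still be counted, so this level does not show whether MYC was edited and does not check the label MYC_KO. The T lineage was visible in 13 tested genes of 18 listed, with a summed level of 3169 to 3253 CPM in DMSO and 3139 to 3268 CPM in doxycycline. Of the other lineages, B cell genes summed to 11.5 to 12.9 CPM in DMSO and 16.2 to 17.1 CPM in doxycycline (4 of 5 tested, MS4A1 at 0), and no erythroid gene of 4 was tested (HBB at 0). Among myeloid genes only MPO was tested, at 0.372 to 0.742 CPM in DMSO and 1.26 to 1.46 CPM in doxycycline, and among fibroblast genes only COL1A1, at 39.9 to 40.2 and 47.3 to 52.9 CPM (COL1A2 and LUM at 0). The part of these markers in the results below was not tested.

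After 72 hours of doxycycline, 8 of the 10 genes were lower and 0 were higher (edgeR quasi-likelihood test, Benjamini-Hochberg adjusted p under 0.05 over all tested genes). PAICS fell by 24.4%, PPAT fell by 18.4%, and GMPS, the least changed of the 8, fell by 9.75%. PFAS and IMPDH2 did not pass. The median log2 fold change of the 10 genes was -0.22, beside -0.00 over all tested genes. As background, 15.5% of all tested genes were called lower and 13.8% higher, 29.3% in either direction. That split depends on the scaling: 2408 genes were lower and 2137 higher with TMM, but 1585 lower and 2871 higher with upper-quartile scaling and 1606 lower and 2758 higher with library size alone. Under those scalings 6 of the 10 were lower, with GMPS and IMPDH1 no longer passing, and none of the 10 changed sign.

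**Figure D1:**
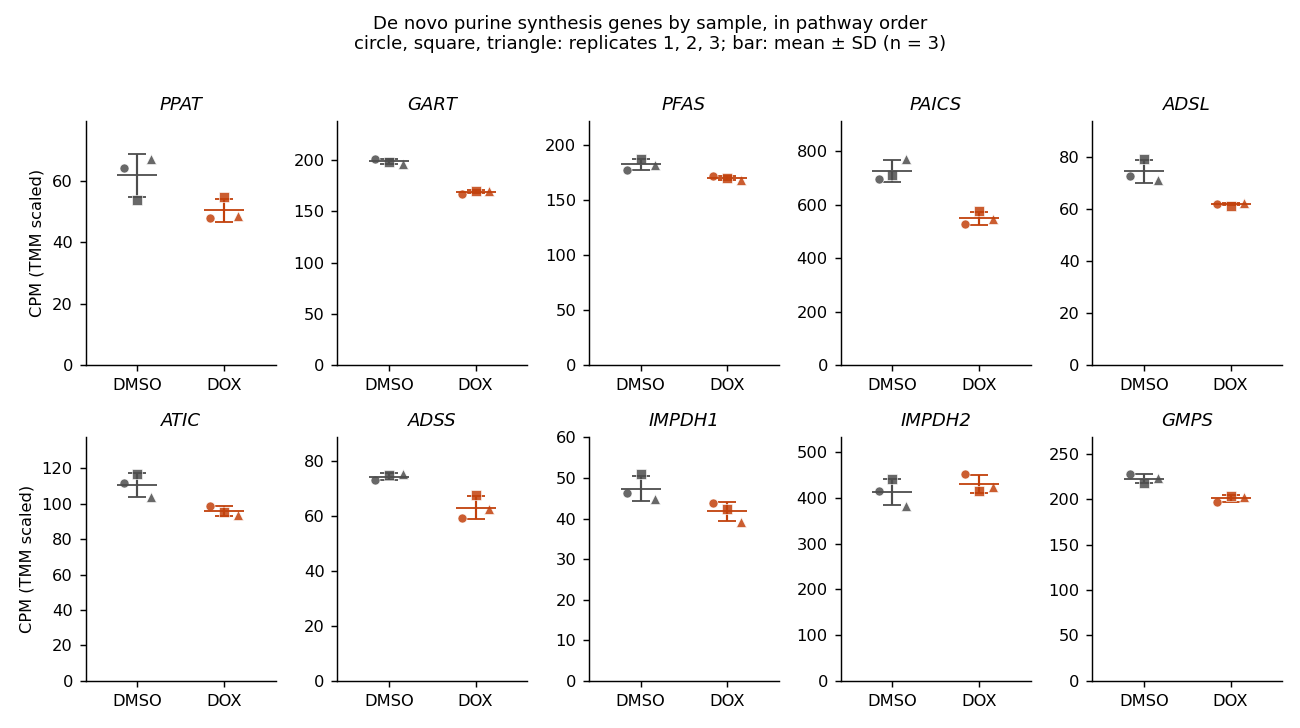
Level of each gene in CPM (y axis, from 0) in the 3 DMSO and 3 doxycycline (DOX) samples, with symbols for replicate numbers and bars for mean ± SD. The groups are separate for 8 genes and overlap for PPAT and IMPDH2.

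In 8 of the 10 genes, PFAS included, every doxycycline sample lay below every DMSO sample. Over all tested genes, 21% showed that pattern and 20.7% the opposite one. PPAT and IMPDH2 were the genes whose groups overlapped.

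PPAT (ENSG00000128059), the amidophosphoribosyltransferase, catalyses the first committed step, in which PRPP receives an amino group from glutamine. Its level was 64.2, 53.7 and 67.2 CPM with DMSO (replicates 1, 2 and 3, the order used throughout). With doxycycline it was 48.0, 54.5 and 48.5 CPM. DMSO replicate 2 lay below doxycycline replicate 2, and the other 2 DMSO samples lay above all 3 doxycycline samples. Means were 61.7 ± 7.09 and 50.3 ± 3.64 CPM (SD, n = 3 each), and PPAT fell by 0.29 on the log2 scale with a standard error (SE) of 0.070 (edgeR adjusted p = 0.00244). It had the widest relative spread of the 10 genes in DMSO, with an SD of 11.5% of the mean.

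PAICS (ENSG00000128050), whose single protein carries a later carboxylase step and the synthetase step that follows it, was at 696, 709 and 772 CPM in DMSO and 526, 575 and 546 CPM in doxycycline. The lowest DMSO sample was well above the highest doxycycline sample. From 726 ± 40.7 to 549 ± 24.6 CPM (SD, n = 3 each), it fell by 0.40 on the log2 scale (SE 0.053, edgeR adjusted p = 5.35e-06). Of all tested genes, 2.76% had a lower log2 fold change than PAICS.

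PPAT and PAICS are head-to-head neighbours. Their promoter is shown because both were called lower without correction for GC content and length, PPAT not with it (below). Which of its starts PAICS used in these cells was not measured. A role of the letters printed here in either fall was not tested. In the RefSeq promoter table (build GRCh38.p14; the counts were made on hg19, so these coordinates do not belong to the count table) the start of PPAT, on the minus strand, and one of the 3 listed starts of PAICS, on the plus strand, were 137 bases apart on chromosome 4. The stretch between them, chr4:56435616-56435751, and the stretch around the only CACGTG in the window of PPAT, chr4:56435782-56435807, are printed on the strand of PPAT. Capitals mark CACGTG, the E-box letters that MYC with MAX is known to bind. ATIC, the gene of the last steps to IMP, is shown for comparison because its window held the same letters at 2 positions, at chr2:215312003-215312028 and chr2:215312078-215312103 on its plus strand.
between PPAT and PAICS: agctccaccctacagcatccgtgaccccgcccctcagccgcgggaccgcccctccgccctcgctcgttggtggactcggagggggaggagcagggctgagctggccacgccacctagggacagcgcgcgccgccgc
PPAT and PAICS E-box: cggagatttcCACGTGcagcaaatac
ATIC upstream E-box: gccggcgggcCACGTGataagcccgg
ATIC downstream E-box: cctacctgcgCACGTGgtgccgccgc

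The shared CACGTG began 182 bases before the start of PPAT and 40 bases after that start of PAICS, so 1 element lay in the windows of both genes. In ATIC the letters began 46 bases before the start and 29 bases after it. Of the 10 genes, 8 had an entry in the table (ADSS as ADSS2), with 13 windows of 300 bases in all. The entries of ADSL and IMPDH2 were missing. CACGTG, a palindrome and so the same on both strands, was found in 3 windows, those of PPAT, PAICS and ATIC, and in 7.26% of all 35116 windows of the table. None was in the windows of GART, ADSS, IMPDH1 and GMPS, which were also called lower, or of PFAS, which was not. CCAAT, searched on both strands, was found in the 3 windows of GART only, beside 34.6% of all windows, and the palindromic NRF1 site in 0 of the 13, beside 1.24%. A match is a description of letters and not a bound site.

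GART (ENSG00000159131), one protein that carries several early steps including a formyl transfer from folate, stood at 202, 199 and 196 CPM in DMSO and 167, 170 and 170 CPM in doxycycline. These were the tightest groups of the pathway, with SDs of 1.31% and 0.871% of the mean, and they did not overlap. GART fell by 0.23 on the log2 scale (SE 0.047, edgeR adjusted p = 5.40e-04). In GENCODE 29, 275 bases of its exons overlap exons of SON on the opposite strand, and the strand setting of the counting is not given in the sources used here.

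PFAS (ENSG00000178921), the amidotransferase that adds the second glutamine nitrogen, was at 178, 188 and 182 CPM in DMSO and 172, 170 and 169 CPM in doxycycline. Every doxycycline sample lay below every DMSO sample, by a narrow margin. The log2 fold change of -0.10 (SE 0.048) did not pass (edgeR adjusted p = 0.114).

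ADSL (ENSG00000239900), the lyase that releases fumarate both on the way to IMP and on the way to AMP, was at 72.8, 79.3 and 70.9 CPM in DMSO and 62.0, 61.3 and 62.3 CPM in doxycycline. The doxycycline samples were nearly equal and lay below all DMSO samples, of which replicate 2 was the highest. ADSL fell by 0.27 on the log2 scale (SE 0.055, edgeR adjusted p = 7.46e-04). In GENCODE 29 its exons share 1344 bases with AL022238.4 on the same strand, a gene not in the count table.

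ATIC (ENSG00000138363), which adds the last formyl group and closes the ring, was at 112, 117 and 104 CPM in DMSO and 98.8, 95.5 and 93.5 CPM in doxycycline. The groups did not overlap. It fell by 0.20 on the log2 scale (SE 0.053, edgeR adjusted p = 0.00492).

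On the AMP branch, ADSS (ENSG00000035687), the adenylosuccinate synthase, was at 72.9, 74.9 and 75.1 CPM in DMSO and 59.1, 67.5 and 62.4 CPM in doxycycline. The DMSO samples were close together and the doxycycline samples were all lower, replicate 2 least so. ADSS fell by 0.24 on the log2 scale (SE 0.056, edgeR adjusted p = 0.00232). Its paralogue ADSSL1, best known from muscle, was below the level needed for a test.

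On the GMP branch, the isozymes IMPDH1 and IMPDH2 oxidise IMP to xanthosine monophosphate, the rate-limiting step to guanine nucleotides, and GMPS then adds the amino group. IMPDH1 (ENSG00000106348) was at 46.3, 50.9 and 44.9 CPM in DMSO and 43.8, 42.5 and 39.2 CPM in doxycycline, the lowest CPM of the 10 genes. Its groups were separated by a narrow gap. It fell by 0.18 on the log2 scale (SE 0.063, edgeR adjusted p = 0.0307). This call ended on leaving out DMSO replicate 1 (edgeR adjusted p = 0.0559), DMSO replicate 2 (0.136), doxycycline replicate 2 (0.0530) or doxycycline replicate 3 (0.183). The log2 fold changes of these fits were -0.198, -0.128, -0.193 and -0.136. Without DMSO replicate 1 or doxycycline replicate 2 the fall was thus not smaller, and fewer samples alone can end a call.

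IMPDH2 (ENSG00000178035), the isozyme that dominates in proliferating lymphocytes, was at 414, 441 and 383 CPM in DMSO and 452, 415 and 425 CPM in doxycycline. The groups overlapped, with DMSO replicate 2 above 2 of the doxycycline samples. Its mean went from 413 ± 28.6 to 430 ± 19.1 CPM (SD, n = 3 each), and the log2 fold change was 0.06 (SE 0.054, edgeR adjusted p = 0.438). It was the only gene of the 10 with a positive value.

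GMPS (ENSG00000163655) was at 227, 218 and 223 CPM in DMSO and 197, 204 and 202 CPM in doxycycline. The groups were tight and did not overlap. GMPS fell by 0.15 on the log2 scale (SE 0.047, edgeR adjusted p = 0.0200). That call did not survive leaving out DMSO replicate 1 (edgeR adjusted p = 0.0818), doxycycline replicate 1 (0.0806) or doxycycline replicate 3 (0.0657). The log2 fold changes of these fits were -0.134, -0.132 and -0.153, so the fall was not smaller without doxycycline replicate 3.

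Processed pseudogenes named after PPAT, PAICS, IMPDH1 and GMPS, which could share reads with them, had at most 32 counts in any sample. These counts do not show how many reads were shared, because reads that match both places may be counted for neither. The libraries farthest from the others of their group were DMSO replicate 2 and doxycycline replicate 1, and without both 7 of the 10 genes were lower, IMPDH1 being the one lost. In the authors' deposited table the same 8 genes had a DESeq2 adjusted p under 0.05, all lower, beside 15.6% lower and 9.79% higher among all genes with an adjusted p there. That table gives PAICS a log2 fold change of -0.41 (standard error 0.052, DESeq2 adjusted p = 5.95e-13), PFAS -0.11 (DESeq2 adjusted p = 0.0687) and IMPDH2 0.05 (DESeq2 adjusted p = 0.562). DESeq2 run again on the deposited counts gave the table's values for all 10 genes, so the table and that run are 1 result.

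Across all tested genes the change followed the GC content of the transcript (Spearman's rho 0.41 across 15036 genes, which share the 6 libraries and are not independent). The median log2 fold change went from -0.13 in the tenth of genes with the lowest GC content to 0.17 in the tenth with the highest. The 10 purine genes span that range, from PPAT with 33.8% GC to IMPDH1 with 62.8%. Each of the 9 genes with a negative value also lay below the median of its own GC decile. For ATIC, PFAS and IMPDH1 the negative value alone placed them there, because the medians of their deciles were positive. By definition a decile has as many tested genes below its median as above it. PPAT, at -0.29, was in a decile with a median of -0.13, and GMPS, at -0.15, in one with a median of -0.10. PFAS and IMPDH1, at -0.10 and -0.18, were in deciles whose medians were 0.13 and 0.17. IMPDH2, at 0.06, lay near the median of its decile, 0.04.

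**Figure D2:**
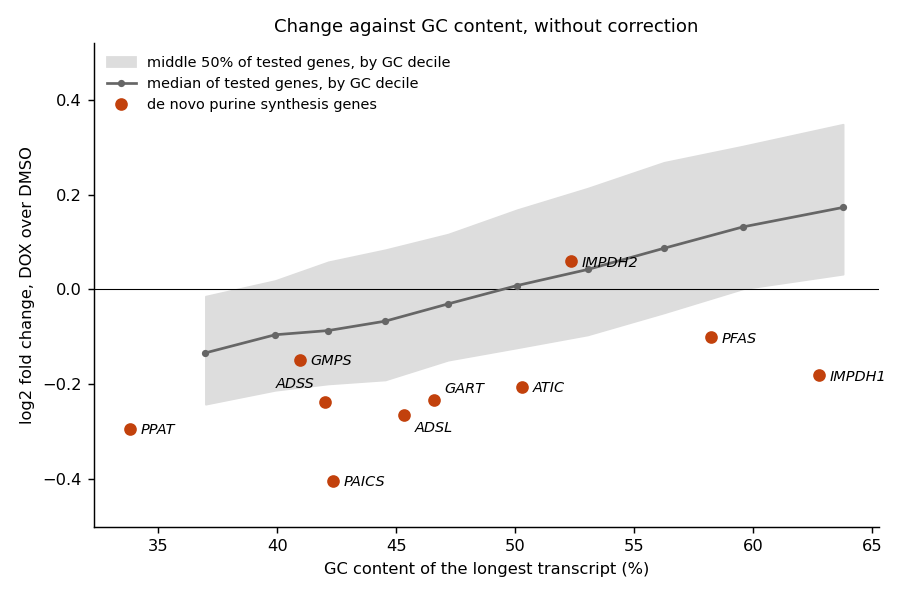
Log2 fold change of doxycycline over DMSO (y axis) against the GC content of the longest transcript in percent (x axis); the line and band are the median and the middle 50% of tested genes in each GC decile, points are the 10 genes. All points but IMPDH2 lie below the line or, for PPAT, which is left of where the line begins, below the median of its decile.

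When a trend of GC content and transcript length was fitted in each library and taken out, 7 of the 10 genes were lower and 1, IMPDH2, was higher, beside 11.4% of tested genes called lower and 10.8% higher. A real change that runs with GC content or length is taken out by this fit as well. PAICS remained the largest fall, by 0.36 (SE 0.043, edgeR adjusted p = 1.01e-05). IMPDH1 came next, falling by 0.33 (edgeR adjusted p = 1.17e-04), and PFAS, not called before, fell by 0.25 (edgeR adjusted p = 8.70e-05). These 3 calls held with any 1 library left out of the corrected fit.

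PPAT and ADSS no longer passed, at -0.10 (edgeR adjusted p = 0.167) and -0.10 (edgeR adjusted p = 0.141). The corrected PPAT level was 59.2, 53.2 and 60.7 CPM in DMSO and 54.0, 55.8 and 51.1 CPM in doxycycline, so DMSO replicate 2 then lay below 2 of the doxycycline samples. Without DMSO replicate 2, PPAT did pass in the corrected fit, at -0.16 (edgeR adjusted p = 0.0483). GART, ADSL, ATIC and GMPS stayed lower, by 0.18, 0.21, 0.15 and 0.13. The corrected ATIC call ended without DMSO replicate 1 (edgeR adjusted p = 0.0577), DMSO replicate 2 (0.0706) or doxycycline replicate 3 (0.0765), and the GMPS call without DMSO replicate 2 (0.0863), doxycycline replicate 2 (0.0636) or doxycycline replicate 3 (0.0822).

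IMPDH2 rose by 0.12 after the correction (SE 0.042, edgeR adjusted p = 0.0373). Its corrected level was 412, 415 and 384 CPM in DMSO and 454, 426 and 437 CPM in doxycycline, and the groups then did not overlap. Leaving out DMSO replicate 3 ended this call (edgeR adjusted p = 0.119), as did leaving out doxycycline replicate 1 (0.149), 2 (0.0505) or 3 (0.0896). The log2 fold changes of these 4 fits were 0.0885, 0.101, 0.145 and 0.129, beside 0.125 with all libraries. Without doxycycline replicate 2 or 3 the rise was thus not smaller. The sign of IMPDH2 was positive with and without the correction. It was called only with the correction, and not in every corrected fit with 1 library left out.

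**Figure D3:**
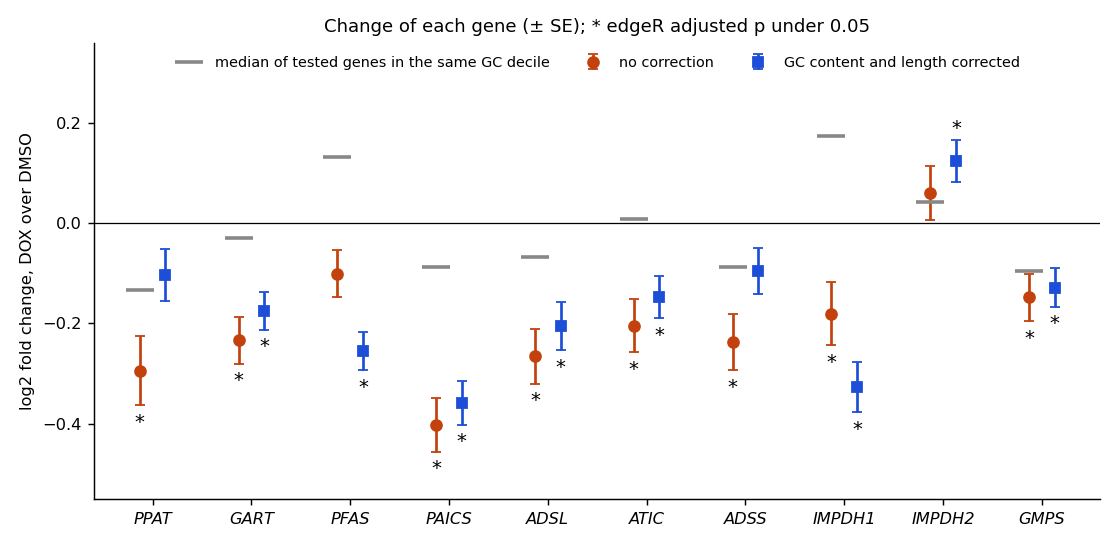
Log2 fold change of doxycycline over DMSO with its SE (y axis) for the 10 genes in pathway order, without (circles) and with (squares) correction for GC content and length, beside the median of tested genes in the same GC decile (grey bars). PAICS is lowest in both fits and IMPDH2 is the only gene above 0.

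Levels were compared between genes per kilobase of the longest transcript (RPKM). IMPDH2 was highest, at 251 ± 17.4 RPKM in DMSO, followed by PAICS at 112 ± 6.28 and GART at 55.7 ± 0.731 RPKM (SD, n = 3). ATIC, PFAS, ADSS and GMPS followed at 48.6, 34.0, 26.7 and 25.5 RPKM. ADSL, IMPDH1 and PPAT were lowest, at 17.1, 16.4 and 15.3 RPKM, and neighbours among these 3 overlapped between samples. The gene of the committed step was thus among the lowest 3 and the isozyme IMPDH2 at the top. With the union of exons as the length, 3 genes kept their place, IMPDH2 and PAICS at the top and ATIC, so the order below the top depends on the transcript model.

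**Figure D4:**
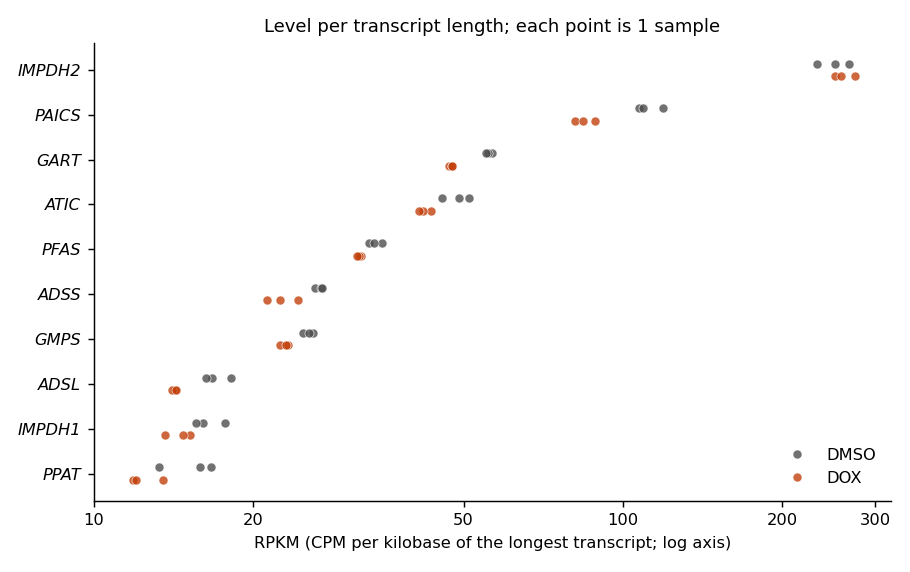
Level per kilobase of the longest transcript (x axis, RPKM, log scale) of the 10 genes, each point 1 sample, DMSO grey and doxycycline orange. IMPDH2 and PAICS are highest in both groups, and the lowest 3 genes lie close together.

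Summed in RPKM, the 6 genes that lead to IMP went from 283 ± 3.92 in DMSO to 233 ± 4.30 in doxycycline (SD, n = 3 each). PAICS, the largest part of this sum, went from 112 to 84.7 RPKM. The sums were 279, 283 and 287 RPKM in DMSO and 230, 238 and 231 RPKM in doxycycline, with no overlap. The 3 genes of the GMP branch, of which IMPDH2 makes up most, summed to 293 ± 18.2 and 299 ± 11.7 RPKM, and these groups overlapped.

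The balance between genes was compared as the ratio of 2 levels within a sample, which no scaling of the library can change. With 3 against 3 samples the exact permutation test cannot give a p below 0.1, so no ratio could pass, and 5 ratios were computed. The ratio of IMPDH2 to IMPDH1 in CPM was 8.94, 8.66 and 8.54 in DMSO and 10.3, 9.76 and 10.8 in doxycycline, with no overlap. The difference was 0.24 on the log2 scale (exact two-sided permutation p = 0.1, adjusted 0.167), and 0.45 with GC content and length corrected. The ratio of IMPDH2 to ADSS, 1 gene of the GMP branch against the gene of the AMP branch, was 5.68, 5.89 and 5.11 in DMSO. In doxycycline it was 7.64, 6.14 and 6.80, again without overlap (difference 0.30, or 0.22 with the correction, exact permutation p = 0.1, adjusted 0.167).

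The ratio of ADSL to GMPS also did not overlap, at 0.320, 0.364 and 0.318 in DMSO and 0.315, 0.301 and 0.308 in doxycycline (difference -0.12, or -0.075 with the correction, exact permutation p = 0.1, adjusted 0.167). The ratio of the divergent pair, PAICS to PPAT, was 10.8, 13.2 and 11.5 in DMSO and between 10.5 and 11.3 in doxycycline, overlapping (difference -0.11, or -0.26 with the correction, exact permutation p = 0.3, adjusted 0.3). GMPS to ADSS, another pair across the GMP and AMP branches, overlapped too (difference 0.09, exact permutation p = 0.2, adjusted 0.25). Its sign turned with the correction, to -0.031.

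Other genes, most of them tied to the supply or use of purine nucleotides, were read from 6 lists. For comparison with each count, 15.5% of all tested genes were lower and 13.8% higher, or 11.4% and 10.8% with the correction. Of the 10 genes that supply PRPP, 5 were lower and 0 higher, with a median log2 fold change of -0.11. RPIA, which makes ribose 5-phosphate, fell by 0.26, PRPS2 and PRPS1, the PRPP synthetases, by 0.21 and 0.16, and the epimerase RPE by 0.24 (edgeR adjusted p from 0.00299 to 0.0189). The calls of all 4 were lost with GC content and length corrected, where 2 of the 10 were lower and the median was -0.063. Only 2 of the 10 were lower when scaled by upper quartile, by library size alone or without doxycycline replicate 3. RPE did not pass without DMSO replicate 1 (edgeR adjusted p = 0.0810), doxycycline replicate 1 (0.0611) or doxycycline replicate 3 (0.0523), nor PRPS1 without doxycycline replicate 3 (0.0920).

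Of 12 tested genes of purine salvage, which reuses free bases and nucleosides, 6 were lower and 1 higher, with a median of -0.15. HPRT1, which rebuilds IMP and GMP from hypoxanthine and guanine, went from 52.8 ± 0.751 to 38.1 ± 2.22 CPM (SD, n = 3 each). It fell by 0.47 on the log2 scale (edgeR adjusted p = 3.04e-06) and by 0.23 with the correction (edgeR adjusted p = 0.00202). APRT, which rebuilds AMP from adenine, fell by 0.38, or 0.43 with the correction, and the phosphorylase PNP by 0.40, or 0.28. PRTFDC1, a relative of HPRT1, fell by 0.60, or 0.37. The gene that rose, AMPD2, an AMP deaminase chosen after its value was seen, did so by 0.16 and did not pass with the correction (edgeR adjusted p = 0.740). No gene of the list was higher without DMSO replicate 1 or doxycycline replicate 1. With the correction 4 genes of the list were lower and 0 higher, with a median of 0.00.

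Of 10 tested kinases of purine nucleotides, 6 were lower and 1 higher, with a median of -0.16. With the correction 4 were lower and 0 higher, with a median of -0.054. The nucleoside diphosphate kinase NME1 fell by 0.72, NME7 by 0.42 and NME4 and NME6 each by 0.26 (edgeR adjusted p from 4.58e-09 to 0.00349), and all 4 also fell with the correction, by 0.59, 0.25, 0.32 and 0.25. The corrected NME7 call ended without DMSO replicate 1 (edgeR adjusted p = 0.0965) or 2 (0.0654) or doxycycline replicate 2 (0.0991) or 3 (0.0652). NME2 was listed at 0 in every sample, so reads of NME1 and its overlapping neighbour may not be separated. NME3, chosen after its value was seen, rose by 0.36 at 3.82 ± 0.454 to 4.90 ± 0.563 CPM (SD, n = 3 each; edgeR adjusted p = 0.0438) and did not pass with the correction (edgeR adjusted p = 0.117). The list had 0 higher genes without DMSO replicate 1 or doxycycline replicate 1 or 3, and 2 without DMSO replicate 2 or doxycycline replicate 2. Without doxycycline replicate 3 its lower genes numbered 4.

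Of 14 tested genes that supply folate-borne formyl groups, glycine and glutamine, 8 were lower and 1, MTHFSD, higher (chosen after its value was seen), with a median of -0.22, or -0.14 with the correction, where 8 were lower and 0 higher. Without DMSO replicate 1 or doxycycline replicate 2 none was higher, and without DMSO replicate 2 there were 2. MTHFD1L and MTHFD2, mitochondrial enzymes of the folate cycle, fell by 0.37 and 0.28, the folate carrier SLC25A32 by 0.40 and PSAT1, of serine synthesis, by 0.32 (edgeR adjusted p from 4.10e-05 to 1.31e-04). With the correction they fell by 0.39, 0.17, 0.24 and 0.15, and the corrected PSAT1 call ended without doxycycline replicate 3 (edgeR adjusted p = 0.0654).

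Of 9 tested genes of purine breakdown and nucleotidases, 2 were lower, among them NT5C3A by 0.33, and 2 higher, ENTPD4 by 0.18 and NT5M by 0.27 (edgeR adjusted p from 0.00330 to 0.0169). The nucleotidases listed were not limited to enzymes that act mainly on purines, so these calls are not a result about purine breakdown. The median of the list was -0.13, or -0.075 with the correction, where 1 was lower and 1 higher. NT5C3A and NT5M did not pass with the correction. The ENTPD4 call ended without doxycycline replicate 3 (edgeR adjusted p = 0.0707) and that of NT5M without DMSO replicate 1 (0.0992) or 3 (0.0738) or doxycycline replicate 1 (0.0524) or 3 (0.0672).

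Of 12 tested transporters and receptors, 1 was lower and 2 higher (4 higher when scaled by upper quartile or by library size alone). Their median was 0.084, or 0.036 with the correction, where 1 was lower and 1 higher. SLC29A1, the main equilibrative nucleoside transporter, went from 168 ± 8.68 to 126 ± 0.702 CPM (SD, n = 3 each), a fall of 0.41 on the log2 scale (edgeR adjusted p = 1.76e-06) that was 0.46 with the correction. SLC29A4, a transporter of the same family, rose by 0.49, or 0.30 with the correction, and the nucleotide receptor P2RY11 by 0.20, which did not pass with the correction (edgeR adjusted p = 0.195).

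**Figure D5:**
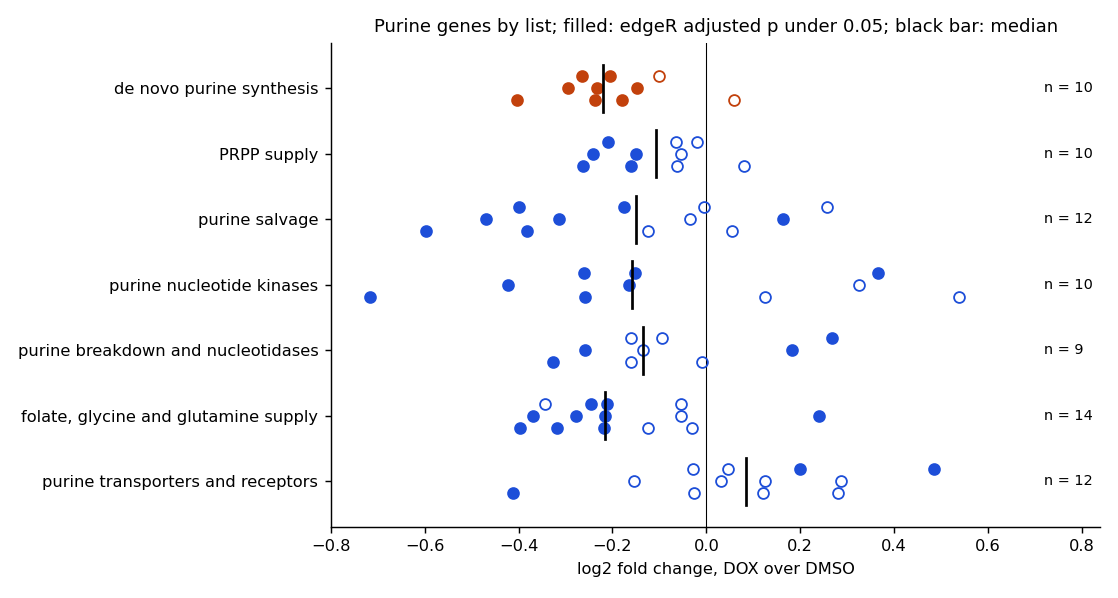
Log2 fold change of doxycycline over DMSO (x axis) for each tested gene of de novo purine synthesis (orange) and of the 6 related lists (blue), without correction; filled points passed the test and black bars are medians. Medians are below 0 for every list but that of transporters and receptors.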

How the data were processed

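The authors deposited raw read counts per gene, and a DESeq2 result per gene: normalized mean signal, log2 fold change and its error, Wald score, p-value and adjusted p-value. STAR 2.5.2a, featureCounts, DESeq2 1.12.4 and hg19 are named per the submitters' processing notes, without roles. Annotation and strand setting are not given in the sources used here.

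Genes passing filterByExpr (15492 of 63677; 99.88% of counts in the library that kept least) were TMM-scaled and tested by the quasi-likelihood method of edgeR 4.0.16 in R 4.3.3. The model held treatment alone, p was Benjamini-Hochberg adjusted over all tested genes, and 0.05 was the threshold. SE is the absolute log2 fold change over the square root of F. For the GC correction, per-library natural splines (5 degrees of freedom each) of GC content and log2 length of the longest GENCODE 29 transcript (GRCh38; 97.1% of tested genes matched) entered as offsets. The fits were also run on simulated counts with the same dispersion for every gene and, in part of the runs, a linear GC trend. These settings are simpler than the real libraries, and the outcome is not used here. DESeq2 1.42.0, other scalings, no filter, a replicate block and leaving out libraries were alternatives.

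All 10 purine genes are named, and of each related list up to 4 called genes with the smallest p. Some genes that this rule selects are not reported here. Genes and lists were chosen with earlier results of these data known. Replicates differed by more than counting noise (chi-square per gene 2.74 to 7.13), so each was counted once.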

Additional observations from a re-analysis of the deposited data

How the results depend on the processing

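Of the 10 purine genes, all kept their direction under every alternative, and the same calls were made with DESeq2 size factors, with no filter on low counts, with DESeq2's Wald test and with the replicate number as a block. Their median log2 fold change was -0.22, moving to -0.17 when scaled by upper quartile, -0.18 by library size alone, -0.16 with GC content and length corrected and -0.16 with that correction and the block. The median over all tested genes was -0.00 in the main fit, 0.047 by upper quartile, 0.043 by library size alone and 0.015 with the correction. That of the 10 purine genes ranged from -0.23 to -0.15 with 1 library left out, with or without the correction. The number of them called lower ranged from 5, in the corrected fit without doxycycline replicate 3, to 8, and 1 was called higher with the correction, also with the block, where it was 0 without and 0 to 1 with 1 library left out. Over all genes, DESeq2's Wald test, run on the counts and equal to the authors' deposited table for the 10 genes and in its counts of calls, called 1348 higher (2137 by edgeR), and upper-quartile scaling 1585 lower (2408). With 1 library left out, 1554 to 2022 genes were higher and 1754 to 2344 lower. In the corrected fit (1621 higher, 1712 lower), leaving out DMSO replicates 1, 2 and 3 gave 1263, 1106 and 1487 higher and 1376, 1204 and 1653 lower, and leaving out doxycycline replicates 1, 2 and 3 gave 1203, 1206 and 1141 higher and 1222, 1222 and 1081 lower. The GMPS to ADSS ratio turned from 0.09 to -0.031 with the correction. With the longest protein-coding transcript as length 8 genes kept their place in the level order, and 3 with the union of exons; both lengths, the corrected fits with 1 library left out, and the fit without both farthest libraries were chosen after seeing the data. The cause of these changes was not tested.

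The labels do not say whether replicate numbers pair the samples. Deviations of same-numbered samples from their group mean correlated at -0.06, -0.23 and 0.09 over genes, and differently numbered ones at -0.28 to 0.32. Deviations within a group sum to 0, so these values cannot decide whether samples were paired. With the replicate block 2006 genes were higher and 2200 lower, and 8 of the 10 purine genes were lower, with a median of -0.22. Not every sample correlated best with its own number. On average over genes the spread between replicates was larger than counting noise (chi-square per gene 2.74 to 7.13). This need not hold for each gene, and a very tight group of 3 samples is not a measure of precision.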
